A study of Homo sapiens with 3 samples.

Results

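The genes described here encode the subunits, activators and assembly chaperones of the proteasome. They were taken as every protein-coding RefSeq gene of GRCh38 whose symbol begins with PSMA, PSMB, PSMC, PSMD, PSME, PSMF or PSMG followed by a number, which gave 50 of the 20037 protein-coding genes on the main chromosomes. Of these, 48 are proteasome genes and 2, PSMC3IP and PSME3IP1, meet the rule by their symbols but encode proteins that bind one of these. A pair of histone marks was mapped by chromatin immunoprecipitation and sequencing (ChIP-seq) in ALL-SIL cells, a human line established from T-cell acute lymphoblastic leukaemia. One library each was made for histone H3 monomethylated at lysine 4 (H3K4me1) and trimethylated at lysine 4 (H3K4me3), and both were set against 1 library of input DNA. The labels name no drug, cytokine or genetic change and no other cell type. Every value below is thus from 1 cell line with no treatment named, and has no replicate error. No test was possible between groups of genes, and differences are given as sizes beside the same measure over all protein-coding genes.

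The proteasome is the protease that degrades proteins tagged with ubiquitin. Its core particle is a barrel of alpha rings, which form the gate, and beta rings, which hold the proteolytic sites. The regulatory particle caps the barrel with a ring of ATPases that unfold the substrate and with non-ATPase subunits that bind and strip ubiquitin. In lymphoid cells and after interferon, the catalytic subunits PSMB6 (beta1), PSMB7 (beta2) and PSMB5 (beta5) are replaced by PSMB9, PSMB10 and PSMB8, which make up the immunoproteasome and change the peptides offered to MHC class I. PSMA8 is an alpha subunit of germ cells, and PSMB11 is the catalytic subunit of thymic cortical epithelium. H3K4me3 lies over starts of genes in use, whereas H3K4me1 lies at enhancers and beside such starts.

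The H3K4me1 library held 34813455 filtered tags and 62087 peaks, the H3K4me3 library 30823016 and 11100 peaks, and the input 18859011 tags. H3K4me3 lay at the starts of 8 of 10 T-lineage markers (all but CD2 and CD5), 1 of 5 B-lineage markers (CD79B), 0 of 5 myeloid markers, 1 of 6 spermatocyte markers (DMC1) and 1 of 4 markers of thymic cortical epithelium (LY75). H3K4me1 lay at the starts of 8, 4, 0, 1 and 1 genes of these lists, in the same order.

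The promoters of the 3 immunoproteasome catalytic subunits and of PSMB5 are shown first, because the comparison of inducible with constitutive subunits turns on them. Each runs 5′ to 3′ from 250 bases before to 50 after a start listed by RefSeq (GRCh38.p14), and PSMB8 and PSMB5 each have a pair of listed starts. RefSeq starts were listed in the table used for 44 of the 50 genes. Capitals mark matches, on either strand, to 7 short motifs whose letters are given with their counts after the sequences.
PSMB8 upstream start (chr6:32844630-32844929, minus strand): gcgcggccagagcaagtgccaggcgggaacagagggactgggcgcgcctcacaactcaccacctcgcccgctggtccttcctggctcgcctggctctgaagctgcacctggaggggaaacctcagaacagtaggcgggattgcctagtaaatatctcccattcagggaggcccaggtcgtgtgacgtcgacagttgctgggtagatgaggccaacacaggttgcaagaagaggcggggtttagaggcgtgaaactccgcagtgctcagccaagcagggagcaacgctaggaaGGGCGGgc
PSMB8 downstream start (chr6:32843998-32844297, minus strand): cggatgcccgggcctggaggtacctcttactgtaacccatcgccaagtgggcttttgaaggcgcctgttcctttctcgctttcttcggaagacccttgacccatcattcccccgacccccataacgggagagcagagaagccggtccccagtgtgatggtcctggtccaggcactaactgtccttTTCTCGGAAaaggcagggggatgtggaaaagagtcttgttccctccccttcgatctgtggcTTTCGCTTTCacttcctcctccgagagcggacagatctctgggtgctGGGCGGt
PSMB9 (chr6:32853942-32854241, plus strand): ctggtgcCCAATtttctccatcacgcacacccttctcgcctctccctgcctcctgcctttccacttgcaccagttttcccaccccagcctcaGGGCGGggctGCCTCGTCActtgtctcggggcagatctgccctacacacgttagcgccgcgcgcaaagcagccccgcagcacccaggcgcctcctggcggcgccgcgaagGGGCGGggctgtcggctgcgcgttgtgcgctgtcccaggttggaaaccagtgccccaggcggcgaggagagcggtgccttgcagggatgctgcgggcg
PSMB10 (chr16:67936801-67937100, minus strand): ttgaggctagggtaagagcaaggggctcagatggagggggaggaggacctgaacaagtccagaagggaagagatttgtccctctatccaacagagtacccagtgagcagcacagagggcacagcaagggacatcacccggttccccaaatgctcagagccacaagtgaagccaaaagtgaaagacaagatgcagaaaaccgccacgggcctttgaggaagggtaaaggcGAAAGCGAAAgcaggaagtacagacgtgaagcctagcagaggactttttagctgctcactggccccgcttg
PSMB5 upstream start (chr14:23035171-23035470, minus strand): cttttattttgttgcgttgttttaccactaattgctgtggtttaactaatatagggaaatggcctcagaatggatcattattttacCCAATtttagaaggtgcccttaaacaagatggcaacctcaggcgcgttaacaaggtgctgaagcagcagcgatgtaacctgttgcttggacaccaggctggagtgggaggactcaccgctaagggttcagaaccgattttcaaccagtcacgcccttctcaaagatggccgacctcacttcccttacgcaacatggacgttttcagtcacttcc
PSMB5 downstream start (chr14:23034851-23035150, minus strand): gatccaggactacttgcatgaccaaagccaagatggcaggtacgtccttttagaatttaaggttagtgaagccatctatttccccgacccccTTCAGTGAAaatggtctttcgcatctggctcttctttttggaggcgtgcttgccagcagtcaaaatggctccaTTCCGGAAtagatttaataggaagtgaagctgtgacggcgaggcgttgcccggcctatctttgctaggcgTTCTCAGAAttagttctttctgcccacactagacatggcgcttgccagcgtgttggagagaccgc

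The core of the element bound by interferon regulatory factors, a pair of GAAA runs with any bases in the 2 places between them, was in the promoters of 4 interferon-inducible genes. PSMB10 held GAAAGCGAAA from -21 to -12, counted with the start base as 1 and the base before it as -1. PSMB8 held TTTCGCTTTC, the same letters on the other strand, from -4 to 6 at its downstream start and none at its upstream start. PSMB9 held no match in this window, and neither did PSMB5 at either start. Among the other genes, PSME2 held GAAAGCGAAA from -28 to -19 and PSME1 held TTTCGCTTTC from 6 to 15, and these encode the subunits of the inducible activator PA28. The remaining matches were in the alpha subunit PSMA4, the beta subunit PSMB4 and the assembly chaperone PSMG4. In all, 7 of 44 genes held it at 1 or more listed starts (15.9%), against 4.16% of 15842 protein-coding genes. With 1 start per gene it was in 6 of 44 (13.6%), against 3.18%. A match describes the letters and does not show that a factor binds there.

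Another motif was uneven between the core and the regulatory particle. CCGGAA, the core of sites bound by ETS factors, was found, with 1 start per gene, in 5 of 6 ATPase promoters and 8 of 10 non-ATPase promoters, but in 0 of 8 beta promoters and in 1 of 7 alpha promoters, that of PSMA8. PSMB5 held it at its downstream start, which this count does not use. At 1 or more listed starts, 24 of 44 genes held it (54.5%), against 26.6%, a count not split by role. With 1 start per gene the total was 21 of 44 (47.7%), against 23.2% of all protein-coding genes and 35.3% of those with H3K4me3 at the start. CCAAT, the NF-Y box, was also in 21 of 44, against 36.4%. GGGCGG, the SP1 box, was in 31 (70.5%), against 59.4% of all genes and 74.1% of those with H3K4me3. TGACNNNGC (N being any base), the core of the antioxidant response element that NFE2L1 and NFE2L2 bind, was in 12 (27.3%), against 14.3%. TTCNNNGAA, the STAT element, and TATAAA were in 5 each (11.4%), against 6.94% and 9.58%. In the sequences printed, CCGGAA overlapped itself on the other strand at -85 to -78 of the PSMB5 downstream start.

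H3K4me3 covered the starts of nearly all of these genes. A peak within 1 kb of the start was found for 48 of 50 (96%), against 50.4% of all protein-coding genes. The 2 without one were PSMA8 and PSMB11, the subunits known from other tissues. Neither mark lay within 1 kb of the start in these 2 genes alone (4%), against 43.2% of all genes. Counted by role, 7 of 8 alpha genes, 10 of 11 beta genes, all 6 ATPases, all 11 non-ATPase subunits, all 5 activators and inhibitors, all 7 chaperones and both partner proteins were marked. Each marked gene had exactly 1 peak at its start, and no pair of them shared one. With a −log10 q of at least 10, the authors' score for a peak against input, the count was 21 of 50 (42%) against 22.6% of all genes.

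**Figure D1:**
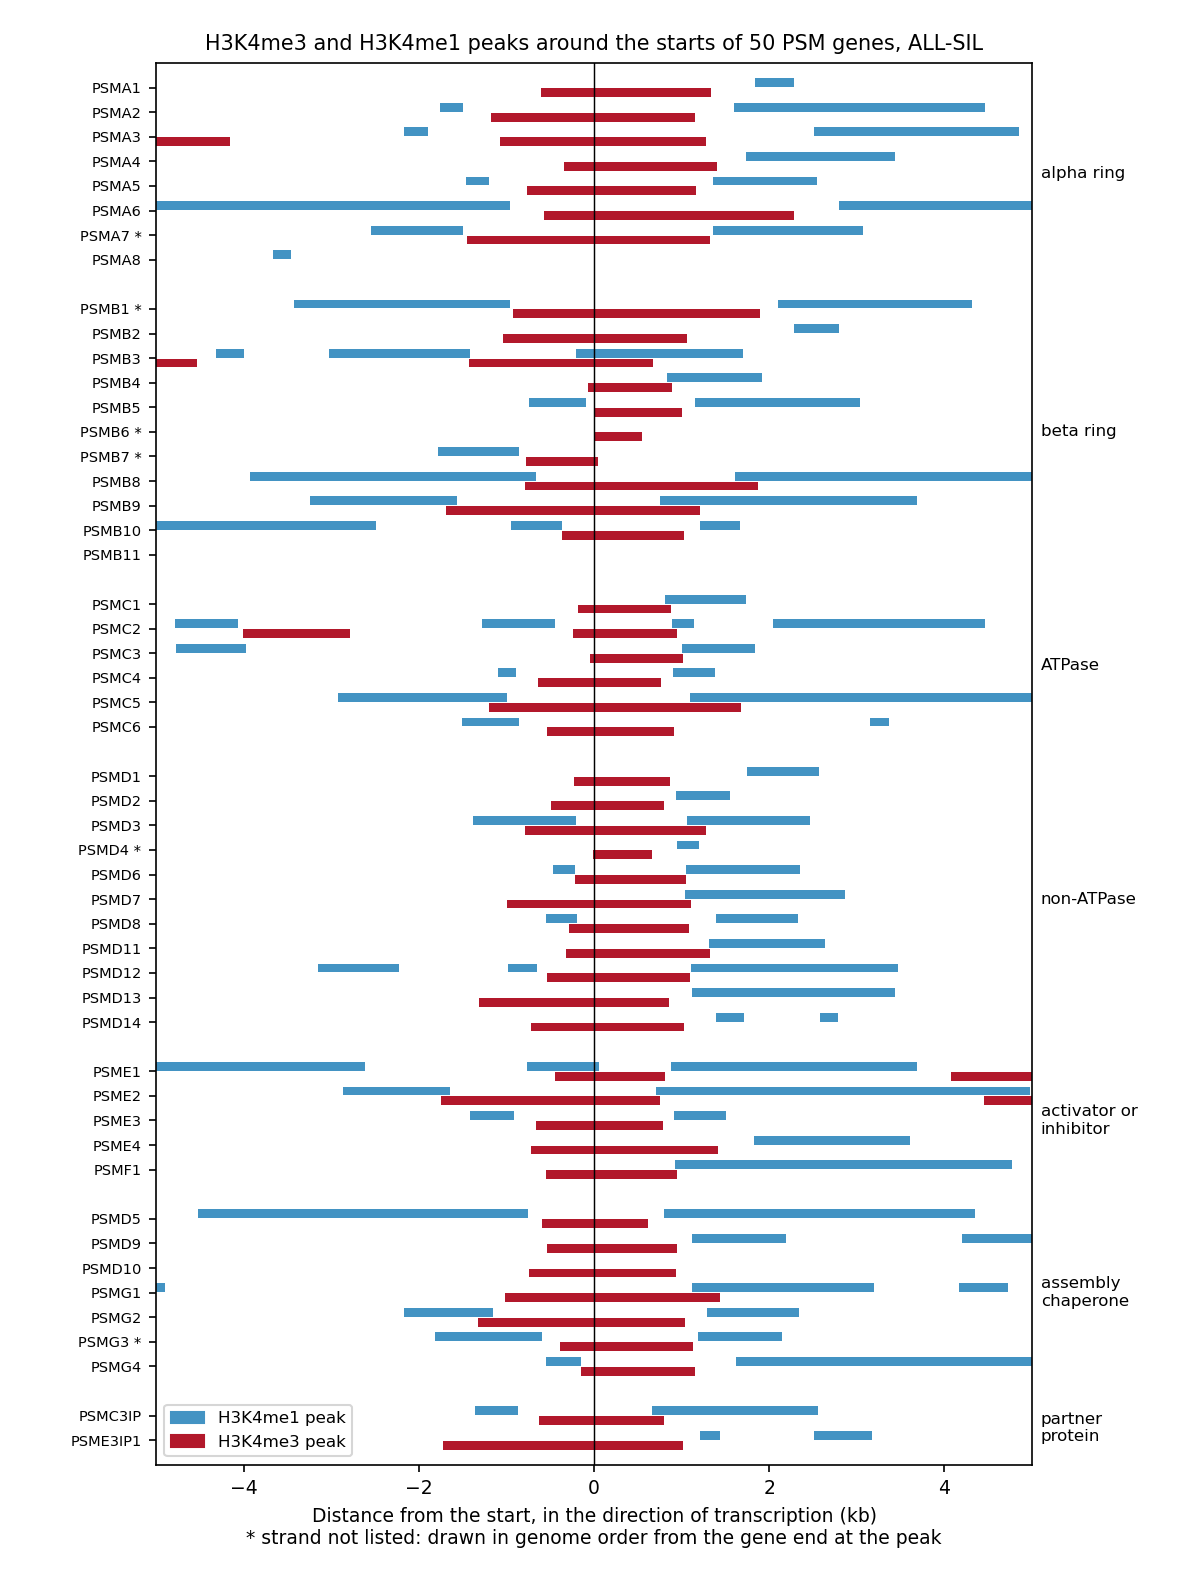
H3K4me3 peaks (red) and H3K4me1 peaks (blue) within 5 kb of the start of each of the 50 genes, grouped by role, with distance in kb in the direction of transcription. The start lies inside the red bar in 47 of the 48 marked genes, and PSMA8 and PSMB11 have no red bar; an asterisk marks the 6 genes with no listed start, drawn from the gene end at the peak.

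In most of these genes the marked stretch was of ordinary size. The H3K4me3 peak at the start had a median length of 1.64 kb in the 48 marked genes (quartiles 1.29 and 2.21), against 1.57 kb in all 10091 marked genes (1.14 and 2.13). The median fold over input, the authors' mean over the peak, was 5.06 against 4.57. None of the 48 peaks reached 4 kb, against 3.19% of all marked genes. Within 5 kb of the start, H3K4me3 covered a median of 1.66 kb in the 50 genes and 0.595 kb in all protein-coding genes. Among marked genes alone these medians were 1.71 and 1.63 kb.

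The immunoproteasome catalytic genes carried the longer H3K4me3 peak in each of the 3 matched pairs. At beta1, the PSMB9 peak (chr6:32852502-32855403) was 2.90 kb and the PSMB6 peak (chr17:4796181-4796713) was 0.533 kb, a ratio of 5.44. At beta2, the PSMB10 peak (chr16:67935819-67937212) was 1.39 kb and the PSMB7 peak (chr9:124414661-124415482) was 0.822 kb, a ratio of 1.70. At beta5, the PSMB8 peak (chr6:32842811-32845469) was 2.66 kb and the PSMB5 peak (chr14:23034219-23035225) was 1.01 kb, a ratio of 2.64. The 3 inducible genes therefore lay between 1.39 and 2.90 kb and the 3 constitutive genes between 0.533 and 1.01 kb, with no overlap. Ranked among all marked genes by length, PSMB9 stood at percentile 90.0, PSMB8 at 86.8 and PSMB10 at 40.0, whereas PSMB5 stood at 18.7, PSMB7 at 10.6 and PSMB6 at 3.59. These are 3 genes against 3 in 1 library, and the pairs follow the known replacement of 1 subunit by the other.

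Height separated these pairs less than length. The fold over input was 3.61 at PSMB9 and 2.78 at PSMB6, 3.45 at PSMB10 and 2.87 at PSMB7, and 5.08 at PSMB8 and 4.70 at PSMB5. The inducible gene was higher in each pair, but PSMB5 exceeded both PSMB9 and PSMB10, so the groups overlapped. None of the 6 peaks was among the strong ones: their −log10 q was 8.92, 6.77 and 5.83 at PSMB8, PSMB9 and PSMB10, and 7.49, 2.62 and 2.57 at PSMB5, PSMB7 and PSMB6, all below the median of the H3K4me3 list (8.97). Taking only peaks at or above that median leaves 0 of 3 in each group, against 26.1% of all protein-coding genes.

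**Figure D2:**
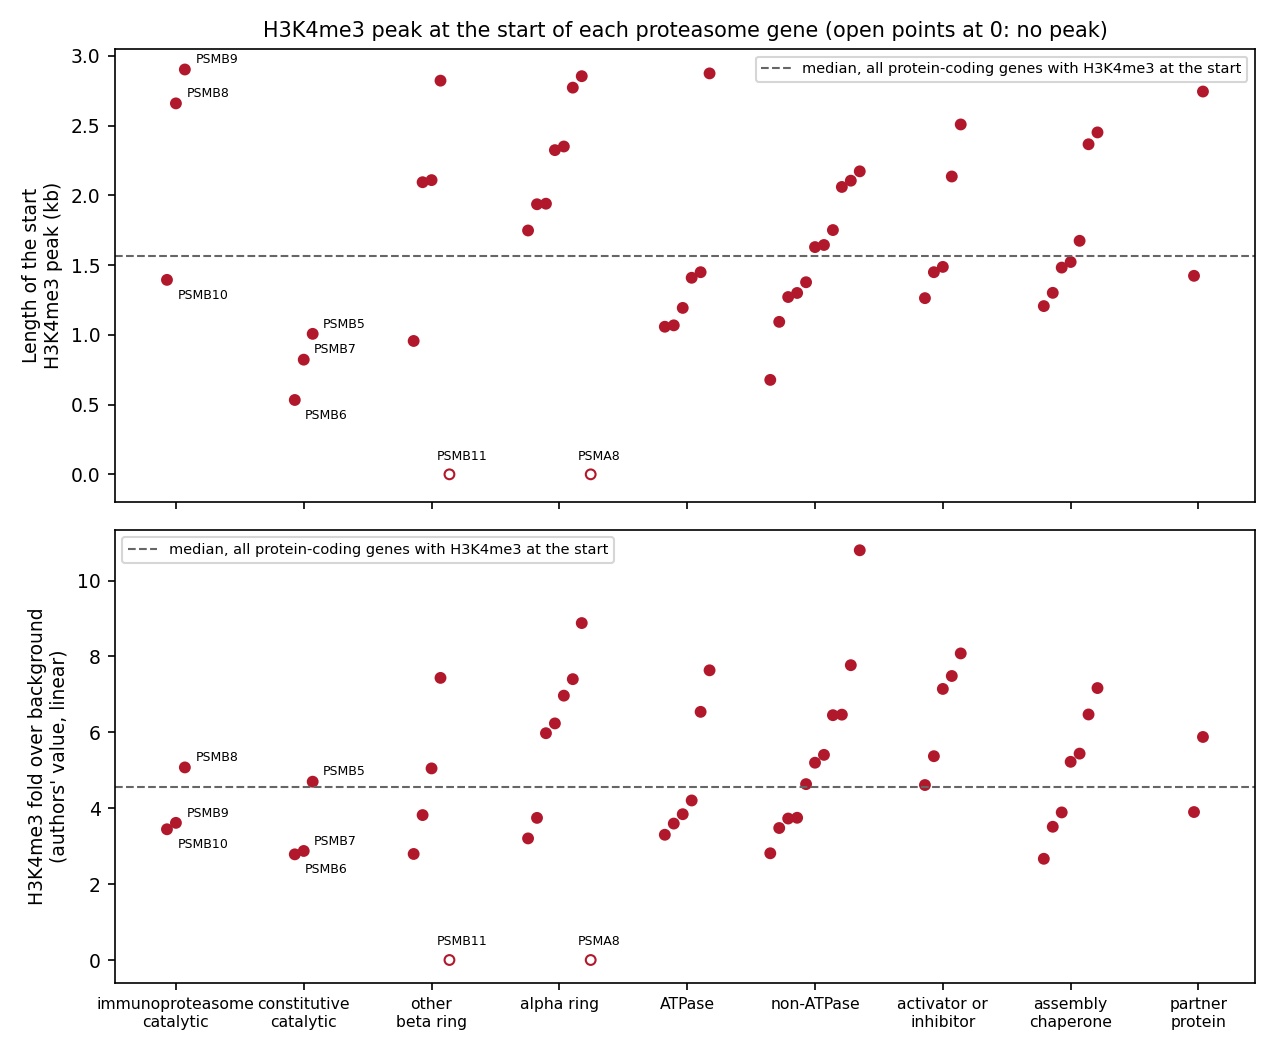
Length in kb (upper panel) and fold over input (lower panel) of the H3K4me3 peak at the start of each gene, 1 point per gene in groups by role, with the median of all marked protein-coding genes as a dashed line. PSMB8, PSMB9 and PSMB10 lie between 1.39 and 2.90 kb and PSMB5, PSMB6 and PSMB7 between 0.533 and 1.01 kb; open points at 0 are PSMA8 and PSMB11, which have no peak.

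Each inducible gene also had more H3K4me1 near its start than its constitutive counterpart. H3K4me1 covered 4.62 kb within 5 kb of the PSMB9 start and 0 kb around PSMB6, 3.55 kb around PSMB10 and 0.927 kb around PSMB7, and 7.28 kb around PSMB8 and 2.54 kb around PSMB5, taken over both listed starts of the last pair. All 3 inducible genes had H3K4me1 on both flanks of the H3K4me3 peak, as did PSMB5, whereas PSMB7 had it on 1 flank and PSMB6 on neither. The strongest of these H3K4me1 peaks were nevertheless at a constitutive gene. The peak of 0.651 kb upstream of PSMB5 had a fold of 8.26 and the one of 1.89 kb downstream a fold of 4.98, whereas the nearest flank peaks had folds of 2.14 and 2.32 at PSMB9, 2.46 and 1.80 at PSMB10, and 2.43 and 2.05 at PSMB8 (upstream and downstream, in that order). When H3K4me1 was limited to its 11100 best peaks, 4 of the 50 genes kept one within 1 kb of the start (8%, against 8.42% of all genes). These were PSMB1, PSMB5, PSMB7 and PSME3, and none of them is inducible catalytic. The 6 flank peaks of the inducible genes thus had lower folds than those of PSMB5, over lengths from 0.452 to 4.04 kb. Distal H3K4me1 peaks were those that overlapped no H3K4me3 peak and no window of 1 kb around a protein-coding start, and so can include flank peaks. They numbered 2 for PSMB9, 4 for PSMB10 and 2 for PSMB8 within 50 kb of the gene, and 1 for PSMB6, 10 for PSMB7 and 4 for PSMB5. The downstream flank peak of PSMB10, with its fold of 1.80, is one of its 4. Counting only peaks over 2 kb from any H3K4me3 peak, the numbers were 1 for PSMB9, 3 for PSMB10 and 2 for PSMB8, and 0 for PSMB6, 10 for PSMB7 and 2 for PSMB5.

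PSMB8 and PSMB9 are neighbours in the MHC class II region, with TAP1, which encodes one chain of the peptide transporter, between them. The PSMB9 peak also held the start of TAP1, which is read in the other direction, and the PSMB8 peak held that of the antisense gene PSMB8-AS1. The peak over PSMB9 and TAP1 ran from 1690 bp upstream of the PSMB9 start to 1211 bp downstream, and the TAP1 start lay at -488 bp from that of PSMB9. The mark there cannot be divided between the genes. A 3.26-kb and a 1.68-kb H3K4me1 peak lay in the stretch between the PSMB8 and PSMB9 peaks, each overlapping an edge of the nearer one. TAP2, the gene of the other transporter chain, had a separate H3K4me3 peak of 0.934 kb. PSMB10, on chromosome 16, shared its peak with no other start and PSMB5, PSMB6 and PSMB7 did not either.

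**Figure D3:**
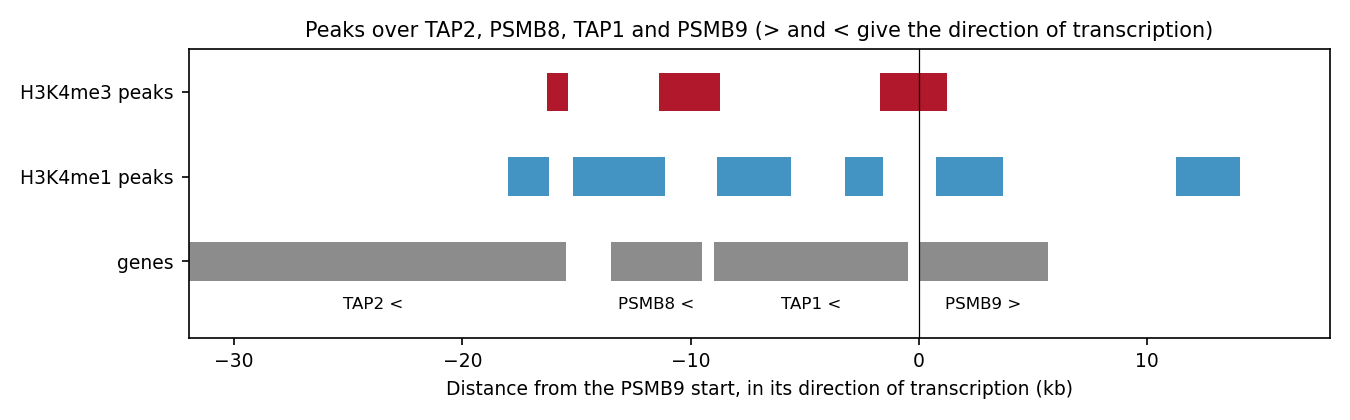
H3K4me3 and H3K4me1 peaks and gene spans around PSMB8, TAP1 and PSMB9, with distance from the PSMB9 start in kb on the horizontal axis. One H3K4me3 peak runs from 1690 bp upstream to 1211 bp downstream of the PSMB9 start and covers the TAP1 start, and H3K4me1 peaks lie at its edges and at those of the PSMB8 peak.

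PSMB6 and PSMB7 have no listed start, and their peaks were placed by gene end. The PSMB6 peak began 17 bp inside the gene and was the shortest of all 48. PSMB7, a gene of 62.0 kb, had another H3K4me3 peak of 1260 bp inside it, 2314 bp from the other end, under an H3K4me1 peak of 7658 bp with a fold of 4.52. Its 10 distal H3K4me1 peaks included 5 inside the gene.

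Of the other beta genes, PSMB1 had the longest and highest peak, 2.82 kb with a fold of 7.44, in a stretch that also held the start of TBP. PSMB2 had 2.11 kb with a fold of 5.05 and PSMB3 2.09 kb with 3.82. PSMB4 had 0.956 kb with a fold of 2.79, close to the constitutive catalytic genes. Short peaks in the beta ring were thus not limited to catalytic subunits, and PSMB1 to PSMB4 are structural.

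The marked alpha genes carried H3K4me3 peaks of above-median length. All 7 marked alpha genes exceeded the all-gene median of 1.57 kb, with a range from 1.75 kb at PSMA4 to 2.85 kb at PSMA6 and a median of 2.32 kb, whereas 25 of the 48 marked proteasome genes did so. PSMA3 had 2.35 kb at its start and, with another peak upstream, 3.20 kb within 5 kb, the most of any of the 50 genes. PSMA1 had the highest fold of the ring, 8.88, and PSMA7 the lowest, 3.20. H3K4me1 lay within 1 kb of the start in 1 of the 8 genes, PSMA6, against 40.5% of all protein-coding genes and 67.5% of those with H3K4me3. In the 6 alpha genes with H3K4me3 at a listed start, the H3K4me3 peak ran 1.15 to 2.28 kb downstream, and all 6 had H3K4me1 on the downstream flank. Distal H3K4me1, flank peaks included, lay inside all 8 gene spans, and inside 26 of the 50 proteasome spans (52%), against 44.6% of all protein-coding genes. Counting only peaks over 2 kb from any H3K4me3 peak, it lay inside 5 of the 8 alpha genes, all but PSMA2, PSMA4 and PSMA7, and inside 19 of the 50 (38%), against 36.2%. PSMA1 had 24 distal H3K4me1 peaks, the most of the 50 genes, with 19 inside a RefSeq span of 139 kb, and PSMA6 had 12. Most of the PSMA1 span (chr11:14504876-14643662, minus strand) lies upstream of its 1 listed start, at 14520386.

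PSMA8, a gene of 59.5 kb on chromosome 18, was the exception among the alpha genes. No H3K4me3 peak lay in the gene or within 5 kb of its start, and the one nearest to its start was 42.6 kb away. H3K4me1 within 5 kb amounted to 0.201 kb, a single peak 3459 bp upstream with a fold of 4.31. Further H3K4me1 lay inside the gene, a peak of 245 bp with a fold of 5.61 and one of 1847 bp with a fold of 5.05, and in all 6 distal peaks were counted within 50 kb. PSMA7, the ubiquitous subunit that PSMA8 replaces in germ cells, had 2.77 kb of H3K4me3 and 2.77 kb of H3K4me1 within 5 kb of its start. The PSMA8 promoter is printed so that a promoter without the mark can be set beside those above. Its GC content was 61.0% and its ratio of observed to expected CpG 0.922, against medians of 65.7% and 0.865 in all genes with H3K4me3 at a listed start. Capitals are as above, and CCGGAA on the minus strand from 3 to 8 overlaps GGGCGG from 7 to 12.
PSMA8 (chr18:26133619-26133918, plus strand): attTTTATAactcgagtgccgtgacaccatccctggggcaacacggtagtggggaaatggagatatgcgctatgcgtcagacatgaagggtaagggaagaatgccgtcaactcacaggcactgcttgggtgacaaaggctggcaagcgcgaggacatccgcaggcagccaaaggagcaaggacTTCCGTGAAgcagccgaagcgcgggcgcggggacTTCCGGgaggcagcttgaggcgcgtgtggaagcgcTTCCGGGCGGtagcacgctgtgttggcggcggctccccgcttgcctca

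PSMB11, the other unmarked gene, had neither mark within 5 kb. The H3K4me3 peak nearest to it, 6.99 kb away, was that of PSMB5, its neighbour on chromosome 14, and 5 distal H3K4me1 peaks lay within 50 kb. Its promoter held few CpG, with a ratio of 0.169, the lowest of the 44. PSMB10 had the next lowest, 0.329, and was marked.

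The ATPase genes, which encode the ring that unfolds substrates, had shorter peaks. Their median length was 1.30 kb, and 5 of the 6 lay below the all-gene median. The exception was PSMC5, with 2.87 kb over its own start and that of FTSJ3. PSMC3 had the highest fold of the ring, 7.64, over 1.07 kb, and PSMC4 the lowest, 3.30, over 1.41 kb. H3K4me1 lay within 1 kb of the start in 5 of 6 (83.3%), against 67.5% of all genes with H3K4me3. The exception was PSMC3, where it began 1007 bp downstream. By length the order differed: within 5 kb, H3K4me1 covered a median of 1.27 kb in the ATPase genes. The same median was 2.16 kb in the alpha genes and 1.91 kb in all genes with H3K4me3.

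The non-ATPase genes ranged from 0.677 kb at PSMD4, a ubiquitin receptor, to 2.17 kb at PSMD13, with a median of 1.63 kb. PSMD11, a lid subunit, had the highest H3K4me3 fold of all 50 genes, 10.8, which is percentile 99.0 of all marked genes. PSMD14, which encodes the deubiquitinase of the lid, had 1.75 kb with a fold of 4.64, and the large scaffold subunits PSMD1 and PSMD2 had 1.09 and 1.30 kb with folds of 5.41 and 6.47. H3K4me1 lay within 1 kb of 6 of 11 starts (54.5%), against the same 67.5%.

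The activators had high peaks of ordinary length. PSME2 had 2.51 kb with a fold of 8.08, over its own start and that of RNF31, and with a further peak 3.06 kb within 5 kb. PSME1, its partner in PA28, had 1.26 kb with a fold of 5.37. PSME3, the nuclear PA28 gamma, had 1.45 kb with 7.49, PSME4, the activator PA200, had 2.13 kb with 4.61, and the inhibitor PSMF1 had 1.49 kb with 7.15. All 5 folds were above the all-gene median of 4.57. H3K4me1 within 5 kb covered 6.02 kb at PSME1 and 5.50 kb at PSME2, against 1.08 kb at PSME3, 1.78 kb at PSME4 and 3.85 kb at PSMF1. The neighbouring pair PSME1 and PSME2, both inducible, thus had the most H3K4me1 of the 5 by covered length, but not by fold. Upstream and downstream flank peaks had folds of 1.94 and 2.22 at PSME1, and 2.11 and 2.21 at PSME2. At PSME3 these were 3.65 and 3.95, and the downstream flank peaks of PSME4 and PSMF1 had 4.51 and 3.06.

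The assembly chaperones, which build the rings but are absent from the finished particle, ranged from 1.21 kb at PSMD5 to 2.45 kb at PSMG1. PSMG3 had the lowest H3K4me3 fold of all 48, 2.67. PSMD10 was the only gene apart from PSMB6 whose peak had no H3K4me1 on either flank. PSMD5, in contrast, had the most H3K4me1 within 5 kb of all 50 genes, 7.33 kb. The partner proteins PSMC3IP and PSME3IP1 had 1.42 and 2.74 kb of H3K4me3.

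H3K4me1 was near the starts and seldom over them. It lay within 1 kb of the start in 28 of 50 genes (56%), against 40.5% of all protein-coding genes. All 28 also had H3K4me3 there, and both marks together occurred in 34% of all genes. Among genes with H3K4me3 the share was 28 of 48 (58.3%), below the 67.5% of all such genes. The count depends on the window: it was 11 (22%, against 26.2% of all genes) within 0.5 kb and 46 (92%, against 53.8%) within 2.5 kb. With an overlap of at least 200 bp it was 18 (36%, against 35%). A listed start lay inside an H3K4me1 peak in 3 of 42 genes, PSME1, PSMB3 and PSMD2, against 13.2%.

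Beyond the edges of the H3K4me3 peak, H3K4me1 lay mainly downstream. The downstream flank of 2 kb held H3K4me1 in 40 of 42 genes with a listed start (95.2%), all but PSMC6 and PSMD10, against 80.2% of all 8473 such genes. The upstream flank held it in 24 of 42 (57.1%), against 68.2%. Both flanks held it in 26 of 48 (54.2%), against 59.6%, 1 flank in 20 of 48 (41.7%), against 30.3%, and neither in 2 of 48 (4.17%), against 10.1%. At 1.4 kb downstream of the start, 28 of 42 genes (66.7%) lay inside an H3K4me1 peak, against 41.5% of all genes, whereas at 1 kb upstream 10 of 42 (23.8%) did, against 30.8%. The downstream H3K4me1 peaks were longer and not stronger than usual: they had a median length of 1.55 kb and a fold of 2.23, against 1.19 kb and 2.37 in all genes. Taking only peaks at or above the median −log10 q of each list left 10 of 23 genes (43.5%) with downstream H3K4me1, against 41.1%, and 5 of 23 (21.7%) with upstream H3K4me1, against 35.3%.

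**Figure D4:**
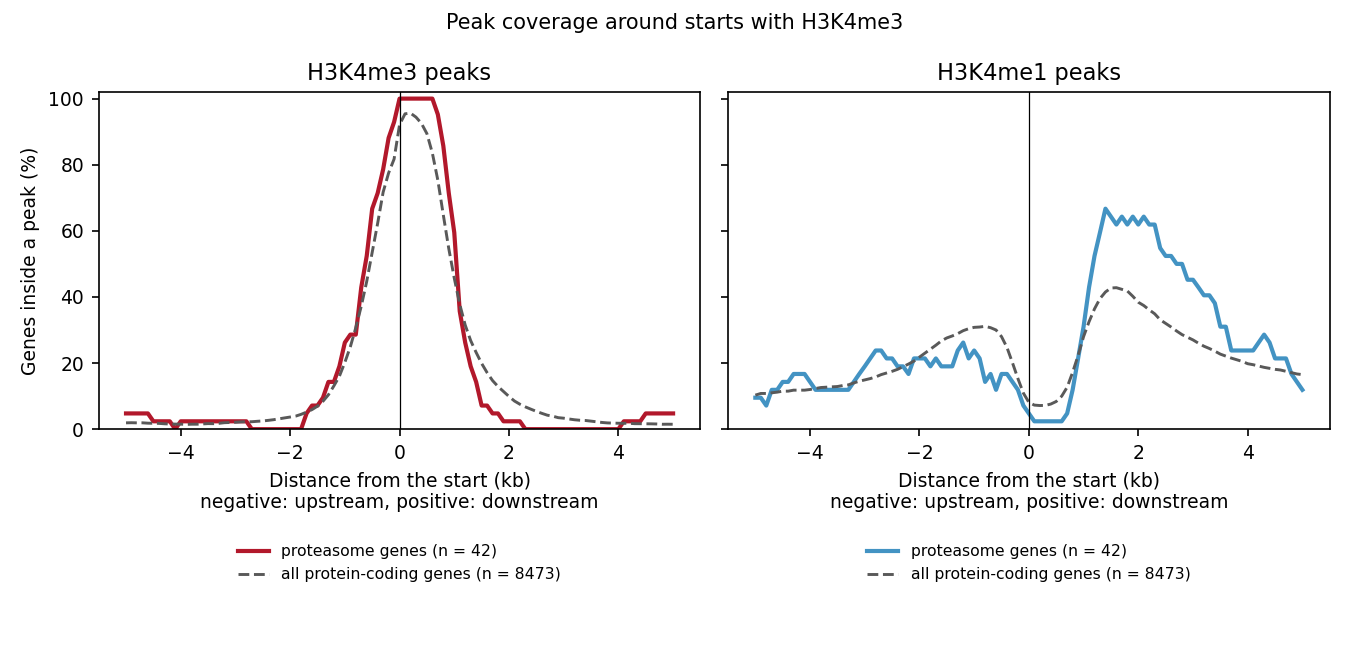
Percentage of genes inside an H3K4me3 peak (left) and an H3K4me1 peak (right) at each distance from the start in kb, for the 42 proteasome genes with a listed start and H3K4me3 there (solid) and all 8473 such protein-coding genes (dashed). At 1.4 kb downstream H3K4me1 covers 66.7% of the proteasome genes and 41.5% of all genes, while at 1 kb upstream it covers 23.8% and 30.8%.

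The H3K4me3 peaks likewise lay more downstream than upstream. They reached a median of 614 bp upstream and 1030.5 bp downstream of the start, against 542 and 946 bp in all genes, and the downstream side was the longer in 35 of 42 (83.3%), against 74.9%. The start lay inside the peak in 47 of 48 genes, all but PSMB6, against 90.6%. The downstream reach ran from 613 bp at PSMD5 to 2278 bp at PSMA6, and the upstream reach from 5 bp at PSMB5 to 1751 bp at PSME2.

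Part of the spread in length went with neighbouring starts. In 11 of 48 genes (22.9%) the peak also held the start of another protein-coding gene, against 22% of all marked genes. These were PSMB9 with TAP1, PSMC5 with FTSJ3, PSME2 with RNF31, PSME4 with ACYP2, PSMA2 with MRPL32, PSMA7 with SS18L1, PSMD10 with ATG4A, PSMD9 with HPD, PSMG2 with CEP76, PSMB1 with TBP and PSMD13 with SIRT3. Counting lncRNA and other genes as well, the share was 15 of 48, against 34.8%. The 11 shared peaks had a median length of 2.37 kb and the other 37 a median of 1.45 kb, and in all genes the same medians were 1.94 and 1.45 kb. PSMB9 is in the first group, but PSMB8 and PSMB10 are not. The PSMB8 peak held the start of the antisense gene PSMB8-AS1. With such genes counted, 2 of 3 inducible and 0 of 3 constitutive catalytic genes shared their peak, against the same 34.8%. Whether shared starts bear on the length difference of the pairs was not tested.

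The median number of distal H3K4me1 peaks was that of genes with H3K4me3. A median of 4 peaks lay within 50 kb of each of the 50 genes, against 3 for all protein-coding genes and 4 for those with H3K4me3. Over 2 kb from any H3K4me3 peak, the median was 3, against 2 for all protein-coding genes. With distal peaks at any distance from H3K4me3 counted, none was found for PSME2, PSME3, PSMD7 and PSMD10, 4 of 50 genes (8%), against 21.5% of all genes. With only peaks over 2 kb from any H3K4me3 peak, 7 of 50 genes (14%) had none, against 27.1%. Both shares were below those of all protein-coding genes, and neither was counted for genes with H3K4me3 alone.

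Genes of the same pathway outside the PSM symbols were counted beside the all-gene shares of 50.4% for H3K4me3 and 40.5% for H3K4me1. Among genes with H3K4me3 at the start, the share with H3K4me1 was 67.5%. All 8 of the other proteasome genes listed had H3K4me3 at the start, among them the ubiquitin receptor ADRM1 (1.91 kb) and the maturation factor POMP (1.84 kb), and 4 of 8 had H3K4me1 (50%). The 5 genes that control proteasome gene expression after inhibition were all marked too. NFE2L2 had 3.77 kb, NFE2L1 2.71 kb and DDI2, the protease that activates NFE2L1, 1.87 kb, and 2 of 5 had H3K4me1 (40%). The H3K4me1 shares of 50% and 40% were near the 40.5% of all genes but below the 67.5% of genes with H3K4me3. All 12 genes of MHC class I antigen presentation had H3K4me3, from 0.934 kb at TAP2 to 3.26 kb at B2M, and 10 had H3K4me1 (83.3%), all but B2M and PDIA3. Of 8 genes that control the interferon response, 7 had H3K4me3, all but IRF8, and 7 had H3K4me1 (87.5%), all but STAT2. IRF1, the inducer of immunoproteasome genes, had 3.89 kb, longer than any of the 48 proteasome peaks. CIITA and NLRC5, the regulators of MHC class II and class I genes, had 1.80 and 0.945 kb. Neither has a listed start, so their peaks were placed by gene end. The CIITA peak held the start of another gene, DEXI, so it may not mark the CIITA start, and the count of 7 with H3K4me3 includes it.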

How the data were processed

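Tags were aligned to GRCh38, per the submitters' processing notes, and the alignment paths name STAR, with its version not given in the sources used here. For peak calling the caller was MACS2 2.1.0.20150731, run in broad mode against the input with a q-value limit of 0.05 for strong and 0.1 for broad regions and 1 tag kept per position, per the file headers. For each peak the authors deposited the pileup, a coverage signal, the fold enrichment over local background, a ratio, and −log10 values of the p and the q, each a mean over the region. They were used only to describe, rank or filter peaks within a list.

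From these, gene starts were taken from the RefSeq promoter table (GRCh38.p14). Of 20037 protein-coding genes, 15842 had a listed start, as had 44 of the 50 described; for the others either gene end was used. A peak was at a start if it overlapped the 1 kb on either side by at least 1 bp. A flank was the 2 kb beyond a peak edge. H3K4me1 peaks were called distal where they touched no H3K4me3 peak and no start window, and were counted over the gene and 50 kb on each side. Python 3.11.15, pandas 2.3.3, numpy 2.4.6 and matplotlib 3.10.9 were used, and the overlap counts were checked against base-by-base counts. Motif shares used 1 listed start per gene unless stated.

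The genes and lists were chosen with earlier results of these data known. Named by rule were the catalytic and tissue-restricted subunits, unmarked genes, the 3 with the most and the 3 with the least H3K4me3, and examples of each role. With 1 library per mark there was no replicate error and no test. Depth limits weak peaks: 34813455 filtered tags for H3K4me1 and 30823016 for H3K4me3. The input had no peak list and entered only through the caller.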

Additional observations from a re-analysis of the deposited data

How the results depend on the processing

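No paired analysis was possible because each mark had 1 library and the labels carry no replicate numbers. Of 67 alternative settings run, 35 left a count within 1.5 times its value or a median equal, and 32 moved it. Flank counts by direction, the limit of 2 kb from H3K4me3 for distal peaks and the settings without the 2 partner proteins or with listed starts only were chosen after seeing the data.

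With a −log10 q of at least 10, H3K4me3 was at 21 starts (42%, against 22.6% of all genes) and H3K4me1 at 2 (4%, against 1.48%). The median H3K4me3 length within 5 kb and the median number of distal peaks were 0. Both flanks, the downstream flank and the upstream flank held H3K4me1 in 0 genes, and the median fold was 6.97. With peaks at or above the median −log10 q of each list, the same values in this order were 24, 14, 770 bp, 2, 4, 10, 5 and 6.51. The 24 starts with H3K4me3 were 48%, against 26.1% of all genes, and the 14 with H3K4me1 were 28%, against 22.2%. Immunoproteasome and constitutive catalytic genes with H3K4me3 were 0 of 3 each under both limits, against 22.6% and 26.1% of all genes. With as many H3K4me1 as H3K4me3 peaks, H3K4me1 was at 4 starts (8%, against 8.42% of all genes) and the distal median was 0. Both flanks, the downstream and the upstream flank then held H3K4me1 in 4, 7 and 3 genes (8.33%, 16.7% and 7.14%, against 7.04%, 14.7% and 13.1%). H3K4me1 was at 11 starts within 0.5 kb (22%, against 26.2% of all genes) and 46 within 2.5 kb (92%, against 53.8%). With an overlap of at least 200 bp it was at 18 (36%, against 35%). The main count of 28 (56%, against 40.5%) thus came down to near the all-gene share with the overlap limit and with equal numbers of peaks. The median H3K4me3 length within 2 kb was 1575.5 bp, and the distal median was 2 within 20 kb, 7 within 100 kb and 3 when only peaks over 2 kb from any H3K4me3 peak were counted.

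Most of these settings left fewer peaks, and the cause was otherwise not tested. Called peaks give presence only, so a missing peak means none was detectable at this depth.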
